A study of Mus musculus with 4 samples.

Results

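Long noncoding RNAs carrying N6-methyladenosine (m6A) peaks were examined in mouse heart, over the peak lines whose transcript is classed as lincRNA, antisense RNA or bidirectional promoter lncRNA. Lines on autosomes were kept and Malat1 was left out. This gave 292 of the 23155 lines of the control list (NC) and 213 of the 16562 lines of the CHAPIR list, 505 of 39717 in all. They lay on 162 genes in the control list and 119 in the other, together 198 of the 6653 genes with any peak. By class, the NC list held 121 lincRNA lines on 64 genes, 164 antisense lines on 93 genes and 7 bidirectional promoter lines on 5 genes. The CHAPIR list held 94 lincRNA lines on 48 genes, 105 antisense lines on 63 genes and 14 bidirectional promoter lines on 8 genes. The deposited annotation placed all of them in exons. Malat1 accounted for 3 NC and 4 CHAPIR lines, and chromosome X for 14 NC and 0 CHAPIR lines.

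The hearts came from C57BL/6 mice carrying an osmotic minipump under the skin of the back for 14 days, and all libraries are labelled 2 weeks. The treated group received a mimic of CHAPIR, a piRNA (a small RNA that guides PIWI proteins), at 30 mg/kg, which the labels call CHAPIR-overexpressed. The NC group was given a scrambled mimic in the same way. Each group had 1 library of m6A-enriched RNA and 1 input library, and the sources used here give no age, sex or number of hearts per library. Each peak list was called on the enriched library over its own input. With 1 library pair per group no test between the groups was possible, and every difference below is one between these libraries.

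The peak lists also differed on sex-linked genes. Read counts were not used, so the levels of these transcripts in the libraries are unknown. Xist, which is made from the inactive X chromosome of female cells, had 10 peak lines in the NC list (best fold 5.50, FDR 5.01e-43) and 0 in the CHAPIR list. The Y-linked genes Ddx3y and Eif2s3y had 0 NC lines and 2 CHAPIR lines each, with best folds of 3.01 and 2.77. The Y-linked genes Kdm5d and Uty had 0 lines in both. The NC list was also longer, with wider peaks. Treatment cannot be told apart from sex, list length or any other difference between the library pairs. The heart muscle gene Myh6 had peaks listed at an FDR of 0 in both lists.

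m6A is written on nascent RNA by the METTL3-METTL14 enzyme complex, mostly at adenosines in a short sequence context with the core GGAC, and is read by YTH-domain proteins that affect RNA decay, splicing and chromatin. In messenger RNA it is densest near the stop codon and in long internal exons, while in long noncoding RNA it has been studied most in nuclear transcripts such as Xist and Neat1. LincRNAs lie between coding genes, antisense RNAs run across a coding gene on the other strand, and bidirectional promoter lncRNAs start beside a coding gene's promoter and run away from it. An antisense RNA therefore shares its stretch of the genome with a second transcript, and only strand information separates their fragments.

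Sequences are shown for the places where a noncoding RNA peak met an annotated small RNA or gene start. All are RefSeq sequences of GRCm38.p6, written 5′ to 3′. H19 carries within its first exon the precursor of miR-675, and 3 NC peak lines touched that hairpin, which lies at chr7:142577064-142577147 on the minus strand. Capitals in the hairpin mark the 73 of 84 bases covered by the NC peak of smallest FDR. Capitals in the mature microRNAs mark the seed, bases 2 to 8.
Mir675 hairpin: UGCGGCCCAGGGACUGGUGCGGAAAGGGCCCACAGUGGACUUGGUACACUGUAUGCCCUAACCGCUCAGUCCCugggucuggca
mmu-miR-675-5p: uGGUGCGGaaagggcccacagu
mmu-miR-675-3p: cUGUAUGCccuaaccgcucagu
The seeds of the 2 mature microRNAs differ. Both mature sequences lay wholly within the covered bases. The hairpin contains GGAC 2 times on its own strand. Of all 1005 mouse hairpins, 246 (24.5%) hold GGAC on their own strand. On either strand it is in 10 of 23 hairpins of the same length (43.5%).

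Windows around gene starts, from 250 bases before to 50 after, were touched by 13 NC lines on 10 genes and 10 CHAPIR lines on 10 genes. The windows below are shown because the peaks reach a start from different sides: Mhrt from within its own transcript, and AC148324.1, AC153504.1 and Uckl1os as antisense or bidirectional neighbours of a coding gene. Capitals mark the bases under the peak of the noncoding RNA.
Mhrt window, chr14:54968537-54968836, plus strand: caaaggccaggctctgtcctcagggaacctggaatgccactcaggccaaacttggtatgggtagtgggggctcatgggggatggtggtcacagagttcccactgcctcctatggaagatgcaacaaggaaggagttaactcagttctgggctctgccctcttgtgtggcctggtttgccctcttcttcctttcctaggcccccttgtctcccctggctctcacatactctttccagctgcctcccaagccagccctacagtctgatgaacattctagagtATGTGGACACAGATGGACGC
Gphn window, chr12:78226405-78226704, plus strand: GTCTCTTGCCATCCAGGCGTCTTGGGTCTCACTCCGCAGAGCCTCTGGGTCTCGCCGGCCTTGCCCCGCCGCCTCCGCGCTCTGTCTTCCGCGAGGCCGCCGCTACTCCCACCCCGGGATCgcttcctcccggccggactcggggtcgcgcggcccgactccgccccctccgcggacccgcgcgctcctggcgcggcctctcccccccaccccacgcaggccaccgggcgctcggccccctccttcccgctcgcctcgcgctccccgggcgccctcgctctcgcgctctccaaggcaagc
Poc1b window, chr10:99106832-99107131, plus strand: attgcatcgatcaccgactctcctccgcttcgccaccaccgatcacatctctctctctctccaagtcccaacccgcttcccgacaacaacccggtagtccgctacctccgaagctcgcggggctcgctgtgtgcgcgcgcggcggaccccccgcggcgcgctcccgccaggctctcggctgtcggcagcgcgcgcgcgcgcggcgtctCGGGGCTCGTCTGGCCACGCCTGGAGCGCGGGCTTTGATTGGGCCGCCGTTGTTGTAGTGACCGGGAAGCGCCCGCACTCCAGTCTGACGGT
Uckl1 window, chr2:181581924-181582223, minus strand: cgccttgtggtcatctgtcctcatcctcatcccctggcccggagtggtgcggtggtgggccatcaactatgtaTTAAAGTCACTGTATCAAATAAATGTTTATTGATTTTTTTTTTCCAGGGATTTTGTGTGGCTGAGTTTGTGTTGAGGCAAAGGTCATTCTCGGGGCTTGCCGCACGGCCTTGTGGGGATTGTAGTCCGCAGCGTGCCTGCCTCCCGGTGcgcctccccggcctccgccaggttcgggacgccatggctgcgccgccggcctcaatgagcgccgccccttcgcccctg
The Mhrt peak began 30 bases after the RefSeq start, and its 20 bases in the window hold GGAC 2 times on the Mhrt strand and 0 times on the other. GGAC on either strand is in 14.4% of all 32851 windows at those 20 positions and in 87.7% of whole windows. A CHAPIR peak of the lncRNA Oip5os1 (fold 5.55) also began 30 bases after its own start. It covered the same 20 positions of a window not shown, with 0 GGAC on both strands. The AC148324.1 peak of the NC list covered 121 bases upstream of Gphn, a scaffold of inhibitory synapses, with 0 GGAC on both strands, where 57.8% of windows hold it. The AC153504.1 peak of the NC list covered 92 bases across the start of Poc1b, a centriole gene, also with 0 GGAC, where 50.7% of windows hold it. The Uckl1os peak of the CHAPIR list covered 149 bases upstream of Uckl1, a uridine kinase-like gene, with GGAC on the strand of Uckl1os 1 time, where 65.7% of windows hold it. These matches describe letters in the windows.

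Of the 198 noncoding genes, 83 had a peak in both lists, 79 in the NC list only and 36 in the CHAPIR list only. These are 41.9% (95% Wilson interval 35.3 to 48.9), 39.9% (33.3 to 46.8) and 18.2% (13.4 to 24.1) of the genes. Over all 6653 genes with a peak the shares were 53.5% in both, 31.3% NC only and 15.3% CHAPIR only. The share in both lists was thus lower in number among the noncoding genes than over all genes, and both list-only shares were higher; these differences were not tested. With the lists cut to equal length, the order of the list-only classes turned, with 34 NC only and 47 CHAPIR only genes. The same count was not made over all genes, so this turn cannot be called particular to the noncoding genes. The intervals cover counting error only.

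By class, the 77 lincRNA genes divided into 35 in both, 29 NC only and 13 CHAPIR only. The 113 antisense genes divided into 43, 50 and 20 in the same order. The 8 bidirectional promoter genes divided into 5, 0 and 3. Antisense genes were thus the class with the lowest share in both lists.

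**Figure D1:**
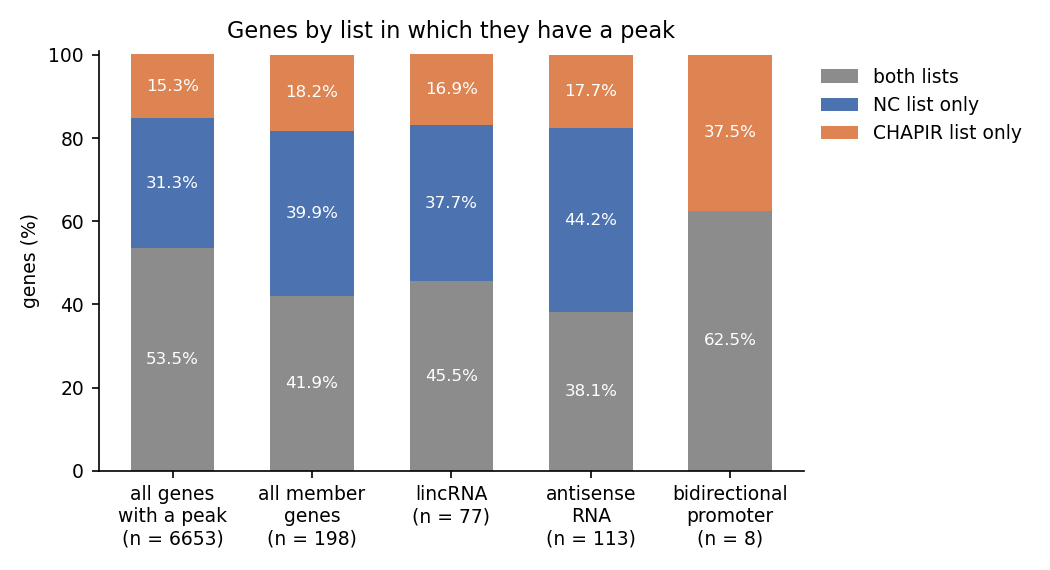
Stacked bars give the percentage of genes with a peak in both lists, in the NC list only or in the CHAPIR list only, for all 6653 genes with a peak and for the noncoding genes, whole and by class. The share in both lists is 53.5% over all genes and 41.9% over the 198 noncoding genes.

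Most genes called in 1 list alone had 1 line there. Of the 79 NC only genes, 62 had 1 peak line and 21 reached an FDR at or under 1e-05. Of the 36 CHAPIR only genes, 28 had 1 line and 12 reached that FDR. Having 1 line was usual for the noncoding genes, with 105 of 162 in the NC list and 79 of 119 in the CHAPIR list. These counts were not made over the list-only genes of the whole lists. None of these list-only genes (0 and 0) was overlapped on the same strand by a peak of the other list under another gene's name.

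Lines of a gene repeat a site across its transcripts, so overlapping lines of 1 gene were also joined into regions. The 251 regions divided into 92 found in both lists (36.7%), 112 in the NC list only (44.6%) and 47 in the CHAPIR list only (18.7%). Over all genes, 10937 regions joined the same way divided into 37.5%, 42.1% and 20.4%, so the shares by region were near the background. Of the 83 shared genes, 80 had overlapping peaks, and Etohd2, Gm44709 and Gm9899 had peaks at separate positions. Among the 80, a further NC only region was present in 17 genes and a further CHAPIR only region in 6. Peaks with exactly the same blocks in both lists were found once each in 11 genes, among them Mhrt, Neat1 and Gas5.

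By single lines, 145 of 292 NC peaks were overlapped by a CHAPIR peak on the same strand (49.7%, 44.0 to 55.4), against 50.5% over all NC peaks. In the other direction, 152 of 213 CHAPIR peaks were overlapped by an NC peak (71.4%, 65 to 77), against 72.3% over all CHAPIR peaks. Both shares were close to their background.

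Within their own lists, the noncoding peaks mostly had a single block, and fewer than 50% reached the stricter FDR. An FDR at or under 1e-05 was reached by 136 NC peaks (46.6%, 40.9 to 52.3) against 56.2% of all NC peaks, and by 102 CHAPIR peaks (47.9%, 41.3 to 54.6) against 61.7% of all CHAPIR peaks. A single exonic block made up 70.9% of the noncoding NC peaks and 55.2% of other NC peaks, and 75.1% and 68.4% in the CHAPIR list. Peaks covered a median of 199 exonic bases (quartiles 121 and 305) in the NC list, where other peaks covered 238. In the CHAPIR list the median was 177 (120 and 264), where other peaks covered 181.

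The deposited fold is the authors' ratio of enriched over input signal in a peak and is not scaled between lists. Folds and FDR values of both lists are printed side by side for named genes. Differences in them between the lists were not tested and are not read as changes in m6A. Its median over the noncoding peaks was 3.6 for NC, with 3.49 over other peaks, and 4.51 for CHAPIR, with 3.86 over other peaks. A fold of at least 10 was listed for 28 NC peaks (9.59%) and 32 CHAPIR peaks (15.0%), against 6.45% and 10.3% of other peaks. Of those, 7 of 28 and 16 of 32 had an FDR at or under 1e-05, against 705 of 1475 NC and 1038 of 1682 CHAPIR peaks of that fold among other peaks.

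Positions along genes were compared with those of peaks on coding transcripts. RefSeq spans were found for 88 noncoding genes by symbol and 5 by an older symbol. Over these genes, and with each span cut into 3 equal parts, 35.4% of 147 NC lines lay in the first part, 22.4% in the middle and 42.2% in the last. NC peaks on coding transcripts had 14.1%, 20.7% and 65.2%. For 115 CHAPIR lines the 3 parts held 30.4%, 18.3% and 51.3%, against 9.82%, 15.1% and 75.1% on coding transcripts. Lines repeat sites across transcripts, and Neat1 and Tug1 gave 14 of the 52 NC lines and 17 of the 35 CHAPIR lines in the first part. Without these 2 genes, left out after seeing the data, the first part held 28.6% of NC and 19.6% of CHAPIR lines. Spans include introns, so these positions are on the genome and not along the spliced RNA.

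The nuclear and abundant lncRNAs in the list chosen for them with a peak were Neat1, Tug1, Norad, Oip5os1 and Gm26917. All 5 were in both lists, as were 41.9% of the noncoding genes and 53.5% of all genes, and the list was chosen with earlier results of these data known. None of their peaks overlapped an opposite-strand peak.

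Neat1, the RNA scaffold of paraspeckles, had 7 NC and 10 CHAPIR lines, which joined into 3 regions, all found in both lists. Its NC peak of smallest FDR measured 1368 bases (fold 3.44, FDR 1e-215), and the overlapping CHAPIR peak of smallest FDR there measured 690 bases (3.10, 7.94e-93). A 271-base peak at chr19:5842271-5842541 had the same blocks in both lists, with a fold of 4.31 (FDR 3.16e-68) for NC and 11.1 (1e-103) for CHAPIR. That peak was the highest-fold Neat1 peak of both lists. All Neat1 lines lay within 3209 bases of the RefSeq start, in a gene span of 20773 bases. Read coverage was not used here, so whether the libraries held RNA from the rest of that span is unknown.

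Norad, a cytoplasmic RNA that binds Pumilio proteins, is named 2900097C17Rik in the files and had 4 NC and 2 CHAPIR lines. Its strongest NC peak measured 660 bases at chr2:156391930-156392589 (fold 6.15, FDR 1e-105). The strongest CHAPIR peak, 421 bases, lay inside it (7.53, 1.58e-71). A second region was also in both lists, with folds of 1.99 for NC and 1.73 for CHAPIR, and the other 2 NC regions had folds of 1.52 and 1.64.

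Tug1, a nuclear RNA linked to chromatin regulation, had 7 NC and 13 CHAPIR lines on 2 regions. The region from 1788 to 2252 bases after the RefSeq start was in both lists, with an NC fold of 5.36 (FDR 3.16e-11) and a CHAPIR fold of 4.16 (2.29e-06). The region from 3595 to 3931 bases held 6 CHAPIR lines, the best with a fold of 5.94 (FDR 6.76e-06), and 0 NC lines. Tug1 thus kept 1 site in both lists and had a further site in the CHAPIR list only.

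Oip5os1, also known as Cyrano and named 1700020I14Rik in the files, had a 511-base NC peak (fold 2.76, FDR 6.31e-37) and an overlapping 451-base CHAPIR peak (3.71, 2.51e-48). It also had 1 NC only region, with a fold of 2.67, and 1 CHAPIR only region, with a fold of 2.22. Gm26917, whose NC peak of smallest FDR lay 1092 bases from the RefSeq ribosomal sequence Rn18s-rs5, had folds of 1.86 (FDR 1.26e-19) for NC and 2.42 (2.00e-27) for CHAPIR.

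**Figure D2:**
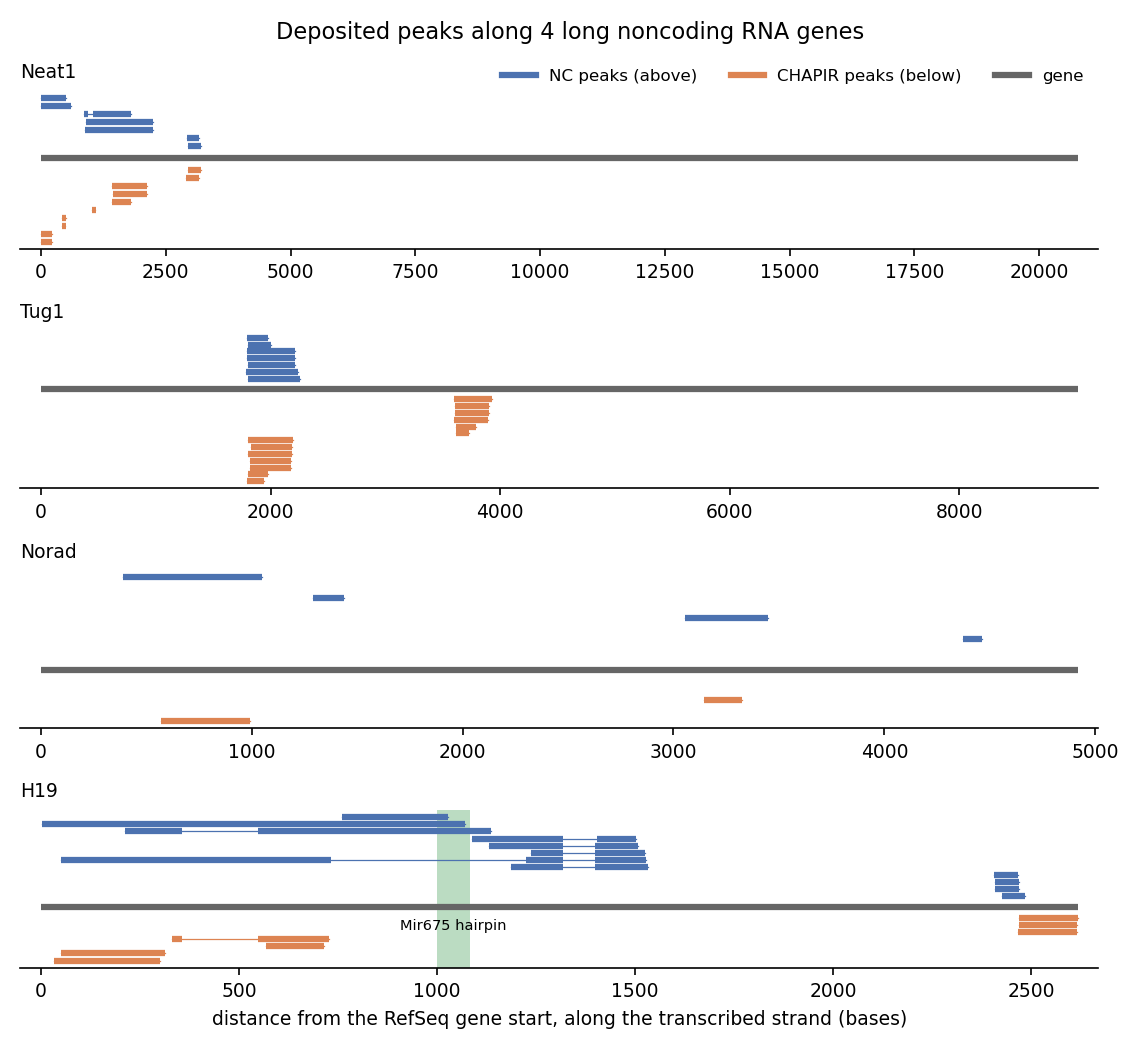
Bars give the exonic blocks of each deposited peak line along Neat1, Tug1, Norad and H19, by distance in bases from the RefSeq gene start, with NC lines above the gene and CHAPIR lines below it. The Tug1 region at 3595 to 3931 bases has CHAPIR lines only, and 3 NC lines and 0 CHAPIR lines of H19 reach the Mir675 hairpin.

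H19, an imprinted RNA expressed from the maternal allele and abundant in fetal muscle, had 12 NC and 7 CHAPIR lines in 2 regions. The NC peak of smallest FDR covered 1069 bases at chr7:142577075-142578143 with a fold of 17.2 (FDR 2.51e-64). The CHAPIR peak of smallest FDR covered 268 bases at chr7:142577846-142578113 with a fold of 5.72 (4.90e-05). The leading H19 peak was thus wide and of very small FDR in the NC list, and short with a larger FDR in the CHAPIR list. In the other H19 region, chr7:142575529-142575739, the order was reversed. There the best NC peak covered 59 bases (fold 3.35, FDR 0.00407) and the best CHAPIR peak 148 bases (4.06, 0.000214).

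The miR-675 hairpin shown above lay 999 to 1082 bases from the H19 start. It was covered over all 84 bases by an NC peak with a fold of 6.73 (FDR 6.31e-63), over 73 bases by the 17.2-fold peak and over 30 bases by a peak with a fold of 2.76. The 7 CHAPIR lines covered 0 of its bases. It was the only RefSeq microRNA hairpin that any noncoding RNA peak touched in these lists.

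The list of imprinted noncoding RNAs had 3 genes with a peak, 1 in each class: H19 in both, Rian in the NC list only and Airn in the CHAPIR list only. Rian, a maternally expressed host of snoRNAs, had 2 NC lines, the better with a fold of 13.4 (FDR 2.04e-06). Airn, the paternally expressed antisense RNA of Igf2r, had 1 CHAPIR line of 147 bases with a fold of 4.16 (FDR 1.62e-05).

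Of the microRNA hosts, H19 was in both lists, and Mir99ahg and Mir100hg (2610203C20Rik in the files) were in the NC list only. Mir99ahg had a fold of 7.87 (FDR 2.34e-09). The 90-base Mir100hg peak had a fold of 10.7 at an FDR of 0.0178. Their peaks did not touch the hairpins they host.

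The snoRNA hosts Gas5 and Snhg1 were in both lists and Zfas1 in the NC list only. Gas5, a growth-arrest transcript, had 3 NC lines (best fold 2.21, FDR 2.09e-07) and 6 CHAPIR lines (2.84, 2.34e-05) that joined into 1 region. The folds of Snhg1 were 11.3 (FDR 0.000141) for NC and 9.36 (5.75e-05) for CHAPIR. Zfas1 had a fold of 2.09 at an FDR of 0.00204. Gas5 had 15 NC and 14 CHAPIR lines over transcripts of any type, and Snhg1 had 9 and 10, so the chosen classes hold only some of their lines.

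Chaserr, a lncRNA that acts on the neighbouring chromatin remodeller gene Chd2, is named 1810026B05Rik in the files. It had 8 NC and 3 CHAPIR lines. Its peak of smallest FDR was in an NC only region (fold 3.37, FDR 2.88e-05), and its other region was in both lists, with folds of 2.1 for NC and 4.16 for CHAPIR. The antisense RNA Atcayos had 8 NC lines (best FDR 3.98e-42, fold 3.73) and 4 CHAPIR lines (6.31e-23, 3.72). Another Atcayos peak, of 151 NC and 211 CHAPIR bases, had folds of 9.25 for NC and 33.3 for CHAPIR.

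Among the lincRNAs without a common name, 1810058I24Rik had 3 lines in each list, with folds of 3.39 (FDR 2.51e-36) for NC and 7.28 (1e-113) for CHAPIR. By the CHAPIR peak of smallest FDR, the highest folds among genes in both lists were those of 2310040G24Rik and 2010320M18Rik. 2310040G24Rik was listed with a fold of 3.54 for NC and 36.4 for CHAPIR, over 206 and 176 bases. 2010320M18Rik was listed with 7.36 over 653 bases and 20.8 over 238 bases.

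**Figure D3:**
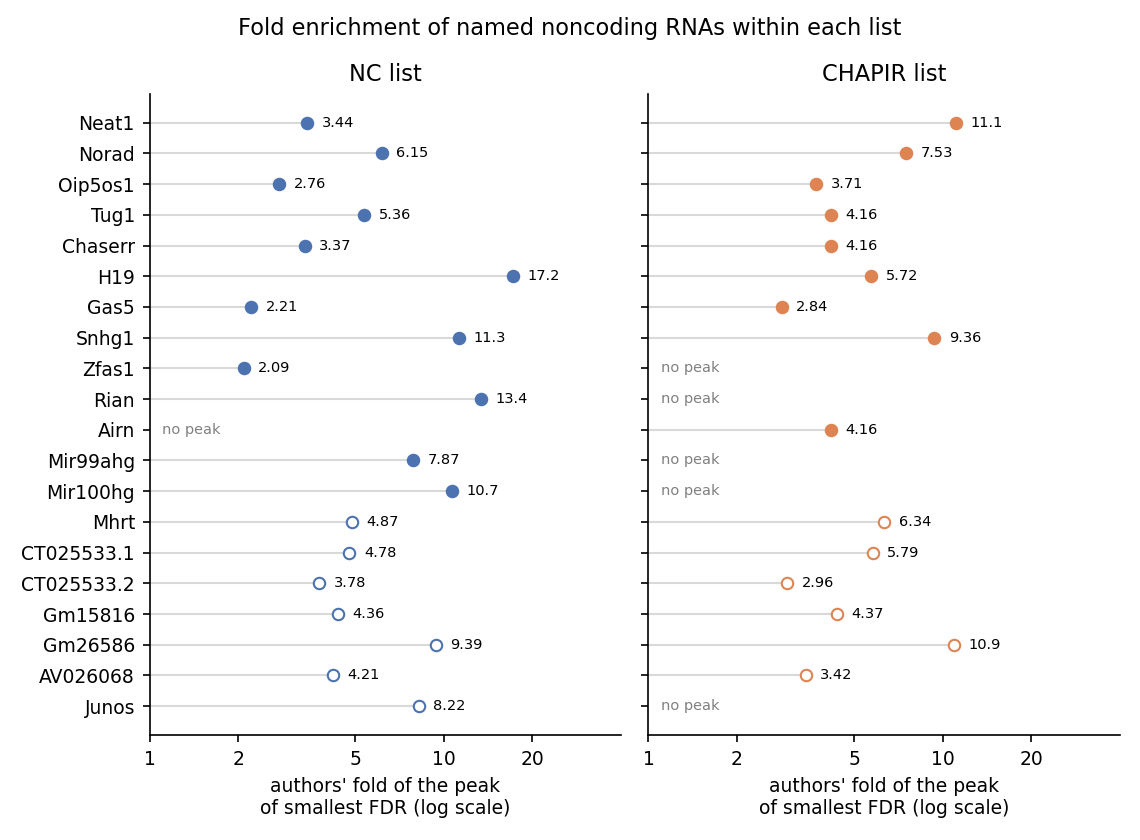
Points give, on a log axis, the authors' fold of the peak of smallest FDR for 20 named noncoding RNAs, with 1 panel per list and the value printed beside each point. Open points overlap an opposite-strand peak of the same list; Zfas1, Rian, Mir99ahg, Mir100hg and Junos have no CHAPIR peak and Airn has no NC peak.

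Many peaks on these RNAs lay over a peak called on the other strand. In the NC list 128 of 292 (43.8%, 38.3 to 49.6) overlapped an opposite-strand NC peak, against 3.8% of all NC peaks. In the CHAPIR list 78 of 213 (36.6%, 30.4 to 43.3) did so, against 4.38% of all CHAPIR peaks. The share was 97 of 164 for NC antisense lines and 53 of 105 for CHAPIR antisense lines, and 28 of 121 and 20 of 94 for lincRNA lines. Antisense genes are annotated across another gene by definition.

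**Figure D4:**
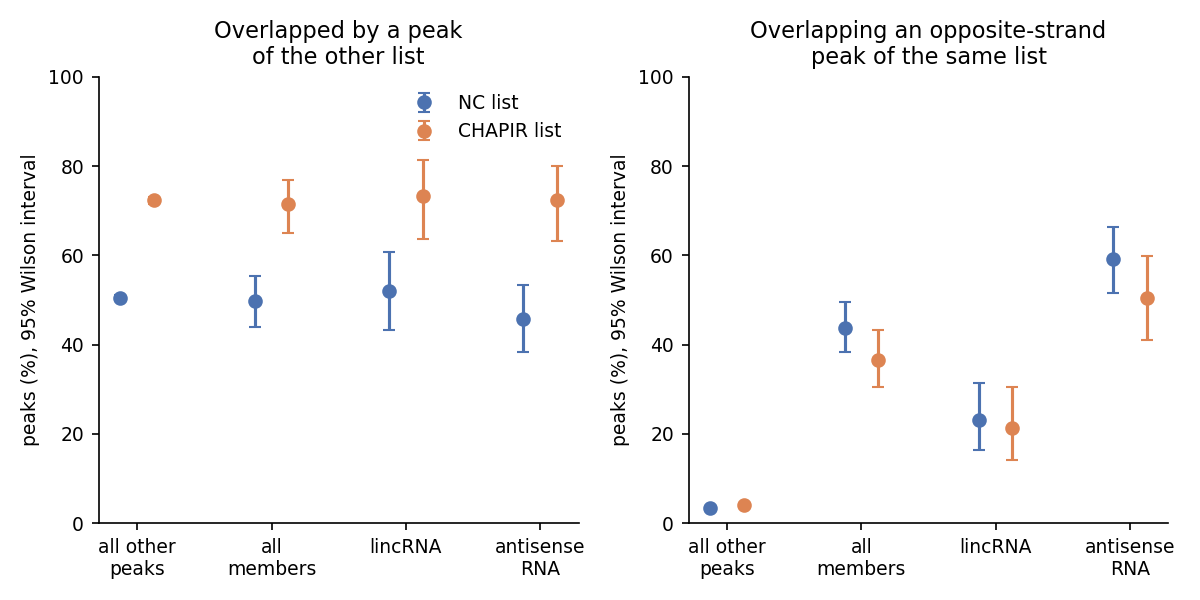
Points give the percentage of peaks with 95% Wilson intervals for each list, over all other peaks, all noncoding peaks, lincRNA and antisense RNA. The left panel shows overlap with the other list, where members and other peaks have close values, and the right panel shows overlap with an opposite-strand peak of the same list, where antisense lines reach 59.1% for NC and 50.5% for CHAPIR.

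The folds and FDR values of the paired peaks were then compared. The opposite-strand peak sharing the most bases was on a gene with coding transcripts for 119 of the 128 NC lines and 74 of the 78 CHAPIR lines. The median ratio of the noncoding fold to the partner fold was 1.0 in both lists, with quartiles 0.873 and 1.14 among NC pairs and 0.919 and 1.2 among CHAPIR pairs. Median folds over all noncoding and all other peaks were 3.6 and 3.49 for NC, and 4.51 and 3.86 for CHAPIR. The ratios were not computed for other opposite-strand pairs, so likeness within pairs cannot be called particular to the noncoding RNAs. The folds lay within 0.8 to 1.25 times of each other in 76 NC and 50 CHAPIR pairs. An overlapping opposite-strand peak had exactly the same fold for 14 NC and 15 CHAPIR lines, and the same fold and FDR for 8 in each list. Equal values were also listed for peaks of unrelated places. An NC fold of 10.7 at an FDR of 0.0178 was given for both 2610203C20Rik on chromosome 9 and Gm37494 on chromosome 7. How often such ties arise without overlap was not counted, so equal values do not by themselves mark a pair. The partner had an FDR at or below that of the noncoding peak in 103 NC and 62 CHAPIR pairs and was as wide or wider in 107 and 60.

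The library kit marks strand per the labels, but the sources used here do not give whether strand was used in peak calling. Without it, fragments of the antisense RNA and of its coding partner cannot be told apart, and values of such pairs may be those of either transcript.

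**Figure D5:**
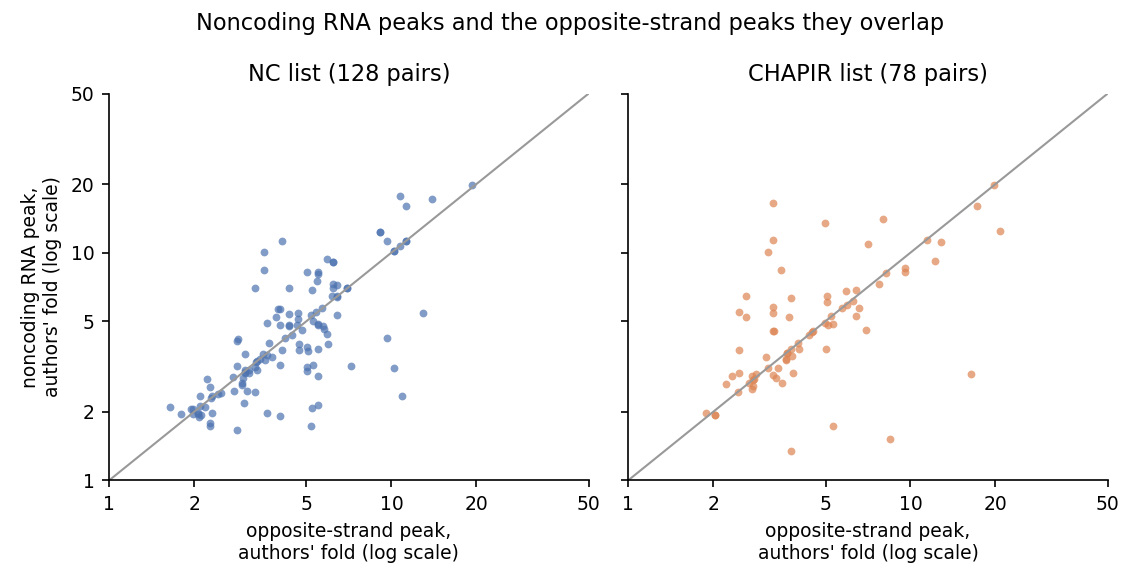
Each point is a noncoding RNA peak that overlaps a peak on the other strand, with the authors' fold of the partner on the horizontal and of the noncoding peak on the vertical log axis, 128 pairs for NC and 78 for CHAPIR. The grey line marks equal folds, and 76 NC and 50 CHAPIR pairs lie within 0.8 to 1.25 times of it.

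Several named peaks lay opposite genes of the contractile apparatus and cytoskeleton, of which 3 (Mhrt, CT025533.2 and Gm29015) share Myh7 as partner. Mhrt, a heart lncRNA antisense to the myosin heavy chain gene Myh7, had 1 peak of 798 bases in 5 blocks at chr14:54968817-54974349, with the same blocks in both lists. Its fold was 4.87 (FDR 1e-297) for NC and 6.34 (1e-213) for CHAPIR. The partner peak on Myh7, the slow cardiac myosin gene, had 5.51 and 3.76. For Mhrt the noncoding peak was thus listed below its partner for NC and above it for CHAPIR.

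CT025533.1 lay opposite Myh6, which encodes the main adult mouse myosin heavy chain. Its fold was 4.78 for NC and 5.79 for CHAPIR, beside Myh6 at 5.73 and 3.26, and all 4 FDR values were listed as 0. CT025533.2, opposite Myh7, had 3.78 for NC and 2.96 for CHAPIR, with the same 506 bases in both. Gm29015, also at Myh7, had the same 178-base peak in both lists, with folds of 2.14 (FDR 2.00e-26) and 1.35 (0.00107). CT025533.2 also had a 328-base NC peak (4.67, 6.31e-49) overlapped by a 61-base CHAPIR peak (1.99, 0.00148), and a 120-base NC only peak (1.65). Peaks at the myosin locus were thus in both lists for Mhrt, CT025533.1 and Gm29015, and for 2 of the 3 CT025533.2 regions.

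Gm15816 lay opposite Ank1, which encodes an ankyrin that ties the membrane to the cytoskeleton, and the pair had folds of 4.36 and 4.43 for NC and 4.37 and 4.36 for CHAPIR. Gm26586 lay opposite the tropomyosin gene Tpm4 with the same 297 bases in both lists, at 9.39 beside 5.93 for NC and 10.9 beside 7.06 for CHAPIR. The first pair was nearly equal within each list, and in the second the noncoding peak was listed higher in both. Gm15816 also had 2 NC only regions, with folds of 1.73 (FDR 3.63e-06) and 2.18 (0.0204).

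AV026068 overlapped Hand2, a transcription factor of heart development, in both lists, with a fold of 4.21 beside 9.65 for Hand2 for NC and 3.42 beside 3.63 for CHAPIR. A separate AV026068 region near chr8:57304264-57307111 did not overlap Hand2. It lay within the RefSeq span of the lncRNA gene Hand2os1 on the same strand, chr8:57304261-57320859. This region had 5 NC lines, the best with a fold of 2.21 (FDR 0.0120), and 11 CHAPIR lines, the best with 4.44 (2.51e-14). At that place the AV026068 peaks thus had an FDR near the limit in the NC list and a much smaller one in the CHAPIR list.

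Junos, antisense to the AP-1 gene Jun, was in the NC list only, with a fold of 8.22 (FDR 4.79e-05) beside 5.02 for Jun. Gm26899, opposite the zinc finger gene Zfp106, was in both lists, at 3.58 beside 3.50 for NC and 6.87 beside 6.43 for CHAPIR.

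Of 16 genes named as the antisense of another gene, 6 were in both lists, 6 in the NC list only and 4 in the CHAPIR list only. Beside Oip5os1 and Atcayos, the shared ones were Plet1os, Prss23os, Rab10os and Sp3os. Prss23os, opposite the protease gene Prss23, had 4 NC lines (best fold 9.12, Prss23 6.21) and 1 CHAPIR line (3.50, Prss23 3.81). Rab10os, opposite the vesicle-traffic GTPase gene Rab10, had folds of 1.79 for NC and 6.45 for CHAPIR, with Rab10 at 2.28 and 2.61.

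The NC only ones were Cdk19os, Faddos, Foxo6os, Ino80dos, Junos and Slfn5os. Cdk19os and Cdk19, a Mediator kinase gene, had the same fold of 6.97, which was also listed for Gm46430 on another chromosome. Faddos had 3.49 beside 3.79 for Fadd, the death-receptor adaptor. Ino80dos overlapped Ndufs1, a subunit of respiratory complex I, at 1.98 beside 2.31. The CHAPIR only ones were Adap2os, Dhrs13os, Lppos and Uckl1os. Dhrs13os overlapped Phf12, a corepressor gene, at 16.1 beside 17.2, and Uckl1os had a fold of 17.7 at an FDR of 0.000977.

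The partner genes were counted by class as well. Of the 46 shared noncoding genes with a partner, 44 had a partner gene in both lists. Of the 43 NC only genes with a partner, 22 had a partner gene in both lists and 21 in the NC list only. Of the 19 CHAPIR only genes, 11 had a partner gene in both and 8 in the CHAPIR list only. The count of 0 partner genes in the opposite list only follows from the choice of partner within the same list. For background, the whole lists divided into 3557 shared, 2081 NC only and 1015 CHAPIR only genes, so the shared class was the largest there too. Whether the partner counts depart from that background was not tested, so they cannot be called particular to these pairs.

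Of the 8 NC only genes of smallest FDR, 7 had an opposite-strand partner peak and Gm10435 had none. Gm44732, opposite the cell cycle inhibitor gene Cdkn1c, had a fold of 4.59 (FDR 2.51e-22) beside 4.81. Gm15943, opposite the kelch-family gene Klhl38, had 6.84 (1.26e-18) beside 5.24. Gm10435 had a fold of 3.40 (3.98e-11).

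By the peak of smallest FDR, the highest NC only folds were 19.8 for Gm26788 opposite the cytolinker gene Dst (partner 19.3), 19.3 for Gm12002 and 16.1 for Gm26860 opposite the protein-translocation gene Sec63 (partner 11.3). Their FDR values lay between 1.74e-06 and 3.55e-05.

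Among CHAPIR only genes, Gm26631 had the smallest FDR. Its peak (fold 8.38, FDR 6.31e-56) lay opposite Cox5a, a subunit of cytochrome c oxidase, whose peak had a fold of 3.48. Gm26870, at chr9:3000462-3004677, had a fold of 11.0 (7.94e-41). Its other peak, at chr9:3018021-3034978, had a fold of 11.1 (5.01e-09) and, unlike the first, overlapped an opposite-strand peak. Gm13054 had an 89-base peak with a fold of 1.79 (3.16e-32) at chr4:148003926-148004014. That peak lay 1852 bases from Nppa, the atrial natriuretic peptide gene, and 245 bases from the chloride transporter gene Clcn6.

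The lincRNA 1300002E11Rik had 3 CHAPIR lines with folds from 21.8 to 25 (best FDR 2.00e-11), 0 NC lines and no opposite-strand peak. 2900076A07Rik had a fold of 6.42 (5.01e-12), beside 5.05 for the opposite-strand Gm37829. These 2 lincRNAs differ in that only the second shares its place with a peak on the other strand.

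The bidirectional promoter lncRNAs were few, with 5 genes in both lists and 3 in the CHAPIR list only. AC121965.1, which lies over the span of Ndufb1, a complex I subunit gene on the same strand, had folds of 1.54 (FDR 5.01e-15) for NC and 3.73 (1e-124) for CHAPIR. 4930470G03Rik, opposite the zinc finger gene Zscan26, had 6.46 beside 6.17 for NC and 4.83 beside 5.12 for CHAPIR. The folds of 4930470G03Rik and Zscan26 were close within each list. AC121965.1 had no opposite-strand peak, but strand does not separate its fragments from those of Ndufb1.

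At the starts shown above, AC148324.1 had a fold of 17.7 (FDR 1e-27) beside 10.7 for Gphn in the NC list. Its best CHAPIR peak had 11.4 (2.34e-05). AC153504.1 had 17.2 (0.000234) beside 13.9 for Poc1b in the NC list. In the CHAPIR list AC153504.1 and Poc1b had the same fold of 11.4 and the same FDR of 0.0355. That fold was also listed for 2610035D17Rik on another chromosome, at a smaller FDR. AC159649.2, in the CHAPIR list only, had 6.13 beside 6.24 for Ptgr2, a prostaglandin reductase gene.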

How the data were processed

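Peak lists of MeRIP-seq from mouse heart were read, 1 list per condition. Per the labels' protocols, mRNA was fragmented, enriched with an m6A antibody, made into stranded libraries, aligned with HISAT2 and given to exomePeak. The build, GRCm38, and HISAT2's version, 2.1.0, are from the submitters' processing notes. The deposited fold is the authors' ratio of enriched over input signal per peak. For each peak the authors also deposited a p-value and an FDR of that enrichment; the highest FDR was 0.0501. An FDR of 0 is too small to be written. Read counts were not used here, so depth is unknown.

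Each line is a peak on 1 transcript. Starts count from 0 and were raised by 1. Overlap meant at least 1 shared exonic base, tested on 500 simulated pairs. Shares have 95% Wilson intervals (scipy 1.17.1) that cover counting error only. Python 3.11.15, pandas 2.3.3 and numpy 2.4.6 were used, and figures were drawn with matplotlib 3.10.9.

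The members, gene lists and naming rule were chosen with earlier results of these data known. Named were all genes of the lists, per class the 8 genes of smallest FDR and 3 further ones of highest fold, per biotype and list the 5 of smallest FDR, the 5 with most lines, and the 5 with an opposite-strand peak of smallest FDR. Those not described by name are counted. A gene's value is that of its peak of smallest FDR unless stated. RefSeq names and spans are of GRCm38.p6. Alternatives were a stricter FDR (1e-05), a fold minimum of 4, equally long lists, genes without protein-coding lines, 50% overlap, whole spans, strand ignored and distinct positions. The list of noncoding transcripts known to encode small proteins had 0 genes with a peak, and 172 genes carry clone or model names, of which 71 were in both lists, 70 NC only and 31 CHAPIR only.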

Additional observations from a re-analysis of the deposited data

How the results depend on the processing

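With 1 library pair per condition and no depth, nothing measures the spread between animals. Genes in both lists numbered 83. They numbered 36 at an FDR at or under 1e-05, 35 at a fold of at least 4, and 39 over peaks without an opposite-strand peak, an alternative chosen after seeing the data. NC only genes, 79 in the report, were 40 at that FDR, 34 with lists of equal length and 37 without opposite-strand peaks. CHAPIR only genes, 36 in the report, were 20 at that FDR and 21 without opposite-strand peaks, and 47 with lists of equal length, where they outnumbered the NC only genes.

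The share of NC peaks overlapped by the other list (49.7%) was 35.7% at a fold of at least 4, 60.8% with equal lengths and 30.1% when 50% of both peaks had to be shared. For CHAPIR peaks (71.4%) it was 60.8% at the stricter FDR, 33.1% at the fold limit, 55.9% with equal lengths and 44.1% under the 50% rule. The order of these 2 shares turned at the fold limit and with equal lengths. Opposite-strand overlap under the 50% rule was 23.3% for NC and 18.8% for CHAPIR. The other 22 recomputed values stayed within their interval or within 1.5 times of the count. The cause of these moves was not tested, beyond the fewer peaks that a stricter limit leaves. The alternatives were computed for the noncoding genes and peaks only, so the moves may equally be those of the whole lists. No paired analysis was possible because each group has 1 library pair and no test was made.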

Other observations

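The lines left out on chromosome X were all in the NC list: 10 on Xist, 2 on its antisense partner Tsix, 1 on 9530027J09Rik and 1 on Gm14493. The Tsix peak of smallest FDR measured 1496 bases with a fold of 5.43 (FDR 7.94e-45), and the Xist peak measured 1439 bases with a fold of 5.50 (5.01e-43). The 2 folds were near each other, but whether these 2 peaks overlap was not computed.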
